A study of Mus musculus with 12 samples.

Results

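The 38 genes described here belong to the integrated stress response and the unfolded protein response, and were taken by symbol from the 27179 rows of the deposited table. They form a pair of arms: 23 genes of the ATF4 amino acid arm and 15 genes of the endoplasmic reticulum (ER) chaperone arm. The genes are listed by symbol with no cut on a measured value, but the lists were chosen with earlier results of these data known. All 38 genes passed the filter on low values (a normalized count of at least 10 in at least 3 libraries). The cells were mIMCD3, a mouse kidney line of inner medullary collecting duct origin, and all of them were grown over 48 h to confluence and then held for 24 h without fetal calf serum. Polyadenylated RNA was sequenced from 12 samples in 4 groups of 3. The control group was labelled wild type. The Actr3 KO group was 1 line labelled as a knockout of Actr3, the gene of the ARP3 subunit of the actin-branching Arp2/3 complex. The dKO group was 1 line whose label gives knockouts of Actr3 and of Ift88, a gene of the intraflagellar transport machinery that builds cilia. The fourth group was the Actr3 KO line with 0.5 µM ciliobrevin D, a dynein inhibitor, added during starvation; the protocol names a solvent control. The labels give 1 line per genotype, so genotype and line cannot be told apart, and all groups but control carried the Actr3 edit.

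In cells short of amino acids or with misfolded protein in the ER, kinases phosphorylate the translation factor eIF2 alpha, which lowers general translation but raises translation of ATF4. ATF4 is a transcription factor that pairs with C/EBP proteins and drives genes for amino acid synthesis, amino acid transport, tRNA charging and, through CHOP and TRIB3, the later phases of stress signalling. In parallel, the ER sensors IRE1 (through spliced XBP1) and ATF6 drive ER chaperones, protein disulfide isomerases and the degradation machinery of the ER. Because ATF4 and XBP1 are controlled in translation and splicing, the level of their RNA is not the level of the active protein, which was not measured.

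Control libraries held 37001577 to 38077987 recovered reads and untreated Actr3 KO libraries 31425219 to 34977447. The dKO libraries held 30391369 to 32588460 and treated Actr3 KO libraries 28902562 to 32544817. Every control library was thus deeper than every other library, and the part of depth in the results was not tested. Control libraries had 8101 to 8664 normalized counts of Actr3, untreated Actr3 KO libraries 1145 to 1347, treated ones 1399.5 to 1759 and dKO libraries 833 to 911. Of Ift88, control libraries had 441 to 471, untreated Actr3 KO libraries 594 to 656, treated ones 434 to 443 and dKO libraries 573 to 633. The group labelled as its knockout was thus above control, and since a small edit can leave the RNA level as it was, these values do not check that label. Of 19 collecting duct markers, 13 to 16 per group had a mean of at least 10. Summed, they reached 111460.0 to 118886 normalized counts per control library but 63856 to 68841 per untreated Actr3 KO library, 72694 to 75871 per treated one and 75932 to 81297 per dKO library, lower in all 3 edited groups. The principal-cell water channel Aqp2 was at 0 in control and Actr3 KO and Foxi1 at 0 in the other groups and in Actr3 KO. The 14 markers of other cell types summed to 448 to 500.3 per control library, 469 to 548 per untreated and 337 to 447 per treated Actr3 KO library, and 624 to 685 per dKO library, with Col3a1 at 0 in every group. The part of these marker levels in the results was not tested. Nothing in the labels says that libraries of one group are separate cultures; their p-values therefore cover only the spread among these samples, which may be technical. The name of 1 control column gives the control as number 2 where the labels have only number 1, so the control group may mix 2 lines, and the column entered the group unnumbered. Without it, 15 genes of the ATF4 arm and 10 of the ER chaperone arm were called in Actr3 KO against control, in place of 18 and 10.

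The deposited data carry no binding or chromatin signal, so the regulatory sequence of the genes is given as a description. The sequences are shown because the arms are classically told apart by these elements: ATF4 with a C/EBP partner binds the CARE (C/EBP-ATF response element, TGATGNAA), and ATF6 and XBP1 act through the ER stress response elements ERSE (CCAAT, 9 bases, CCACG) and ERSE-II (ATTGG, 1 base, CCACG), which share the CCACG end. The cyclic AMP response element (CRE, TGACGTCA) was searched as well. Both strands of the 250 bases before each start site in the RefSeq table of GRCm38.p6 were searched for 33 of the 38 genes. Slc7a5, Wars, Manf, Hyou1 and Atf6 were not searched. The matches of Vldlr and Aars lie before a start site inside the annotated gene, not before its first base. A CARE match was present in 7 of 21 genes of the ATF4 arm (33.33%) and in 1 of 12 of the ER chaperone arm, against 3.905% of all 27018 genes in the table. An ERSE match was present in 0 of 21 genes of the ATF4 arm and in 6 of 12 of the ER chaperone arm (50%), against 0.1295% of all genes. ERSE-II was found in Herpud1 alone (0.03701% of all genes) and CRE in Ppp1r15a alone (1.769% of all genes). A match is a description of letters and not a bound site, and the absence of a match says only that the letters are not in this window.

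Whole windows are shown for Herpud1 and Gars, which had large changes and whose windows overlap no exon of the GENCODE annotation. Each runs 5′ to 3′ on the strand of the gene and ends at the base before the start site, and capitals mark the matches (CARE on the reverse strand in both, and ERSE-II in Herpud1).
Herpud1, chr8:94386179-94386428, + strand: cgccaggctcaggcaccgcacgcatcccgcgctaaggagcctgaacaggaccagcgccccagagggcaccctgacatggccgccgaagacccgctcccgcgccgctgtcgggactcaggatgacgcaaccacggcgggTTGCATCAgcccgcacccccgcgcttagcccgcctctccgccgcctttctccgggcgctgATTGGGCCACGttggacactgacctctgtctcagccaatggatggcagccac
Gars, chr6:55037751-55038000, + strand: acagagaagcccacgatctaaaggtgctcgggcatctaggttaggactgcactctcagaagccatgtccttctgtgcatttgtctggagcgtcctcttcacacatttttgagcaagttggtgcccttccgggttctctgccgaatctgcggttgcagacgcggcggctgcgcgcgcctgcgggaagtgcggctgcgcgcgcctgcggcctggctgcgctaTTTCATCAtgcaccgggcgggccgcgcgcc

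For 5 other genes with a CARE match and for the CRE, only the site with its flanks is shown, with the coordinates of the capitals. TTGCATCA and TTTCATCA are CARE letters read on the strand of the gene where the match is on the reverse strand.
Nupr1, chr7:126625573-126625580, - strand: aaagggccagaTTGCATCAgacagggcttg
Asns, chr6:7693225-7693232, - strand: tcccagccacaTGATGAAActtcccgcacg
Vldlr, chr19:27216820-27216827, + strand: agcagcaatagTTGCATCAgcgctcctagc
Chac1, chr2:119351049-119351056, + strand: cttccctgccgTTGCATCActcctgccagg
Pycr1, chr11:120643844-120643851, - strand: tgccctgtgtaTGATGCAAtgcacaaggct
Ppp1r15a, chr7:45526273-45526280, - strand: cgcctctccggTGACGTCAgcac

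The ERSE matches of the ER chaperone arm are shown in the same way, because the pair of fixed ends with a free stretch between them is visible by eye. Hsp90b1 had 2 matches, 1 on each strand, and the matches of Calr and Creld2 are on the reverse strand.
Hspa5, chr2:34772025-34772043, + strand: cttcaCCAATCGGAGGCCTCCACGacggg
Hsp90b1, chr10:86705638-86705656, - strand: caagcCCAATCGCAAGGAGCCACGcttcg
Hsp90b1, chr10:86705533-86705551, - strand: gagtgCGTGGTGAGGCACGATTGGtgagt
Dnajc3, chr14:118937827-118937845, + strand: cacaaCCAATCAGCGCCAACCACGacccg
Pdia6, chr12:17266491-17266509, + strand: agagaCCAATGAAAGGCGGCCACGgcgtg
Calr, chr8:84847075-84847093, - strand: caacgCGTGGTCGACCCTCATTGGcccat
Creld2, chr15:88819520-88819538, + strand: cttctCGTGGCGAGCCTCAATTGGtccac

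**Figure D1:**
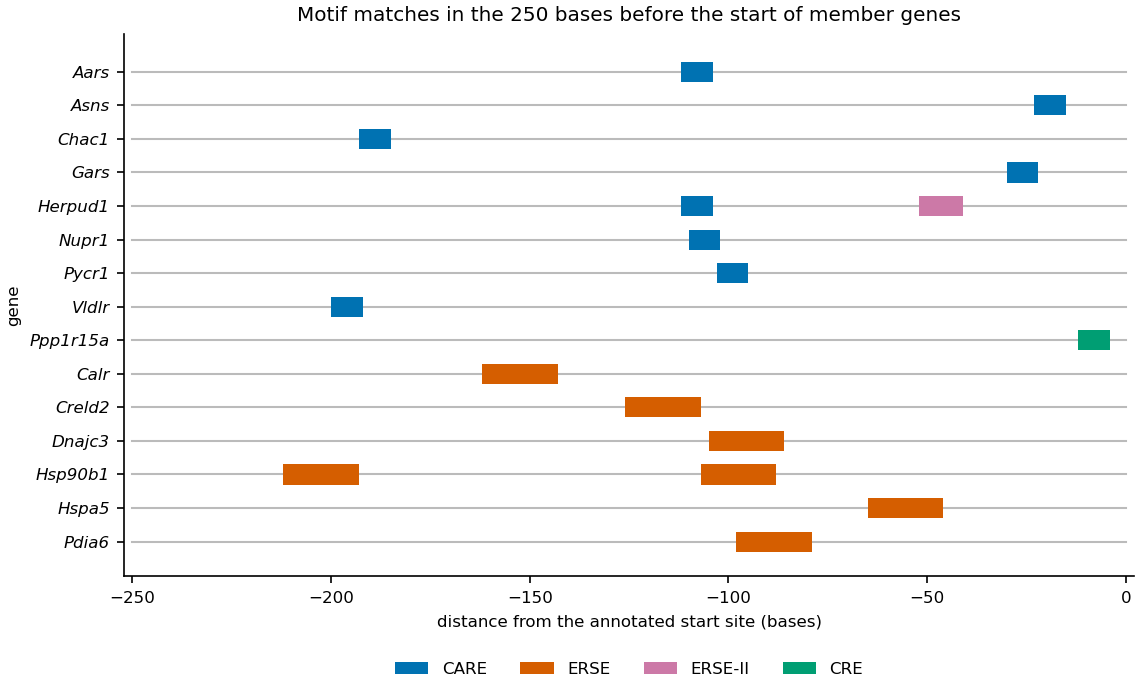
Position of each motif match (coloured bars: CARE, ERSE, ERSE-II and CRE) in the 250 bases before the annotated start site of the 15 member genes that held one, with distance from the start in bases on the horizontal axis. The CARE of Asns and Gars lies within 30 bases of the start, that of Vldlr and Chac1 close to 200 bases away, and Hsp90b1 holds 2 ERSE matches. For Vldlr and Aars the start site lies inside the annotated gene.

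In control cells, the abundance of the 38 genes was compared per length, as normalized counts per kilobase of annotated exon. The ER folding machinery led this order: Hsp90b1, the ER member of the HSP90 family, had 13403 per kilobase, Hspa5, the ER chaperone BiP, had 10204, and the calcium-binding chaperone calreticulin (Calr) had 8801. Phgdh, the first enzyme of serine synthesis, followed with 8605 and was the most abundant gene of the ATF4 arm, ahead of Atf4 itself with 3182. At the low end stood Psph, the last enzyme of serine synthesis, with 247 and the proline enzyme Pycr1 with 47.5. Within groups the genes were tight: the median coefficient of variation was 4.37% over the ATF4 arm in control, 3.19% in Actr3 KO and 4.16% in dKO. It was 9.66% with ciliobrevin D, where replicate 1 held the highest value of its group for 20 of the 23 genes. Control replicate 1 held the lowest value of its group for 14 of the 23 genes of the ATF4 arm and 12 of the 15 of the ER chaperone arm.

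The first comparison, Actr3 KO against control, asks what differs in the line with the Actr3 edit. Most of the ATF4 arm was lower in Actr3 KO: 17 of 23 genes fell and 1 rose, where 35.4% of the 13939 tested genes were called lower and 34.4% higher (limma, Benjamini-Hochberg adjusted p under 0.05). The summed collecting duct markers were also lower in Actr3 KO (63856 to 68841 against 111460.0 to 118886). The median log2 fold change of the arm was -0.43, beside 0.0047 for all tested genes. At least 1.5-fold lower were 11 of the 23, against 15.3% of tested genes, and none was 1.5-fold higher, against 15.1%. The ER chaperone arm was mixed, with 4 genes higher and 6 lower of 15 and a median of -0.041. In bulk RNA, fewer cells of one kind and less RNA per cell cannot be told apart.

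Among the regulators of the ATF4 arm, 6 of 7 fell. Atf4 RNA stood at 7048, 7684 and 7778 normalized counts in the 3 control libraries and at 3979.7, 4239.6 and 4276 in Actr3 KO (log2 fold change -0.85, SE 0.052, limma adjusted p = 7.30e-12). Values are given from lowest to highest, and every knockout library was below every control library. Cebpb, a C/EBP partner of ATF4, had 2698, 3145 and 3228 in control against 1370.0, 1405 and 1566 in Actr3 KO (log2 fold change -1.06, SE 0.070, limma adjusted p = 2.17e-11). Nupr1, a small stress-induced chromatin protein, had 1413, 1540.5 and 1603 against 632, 671 and 759 (log2 fold change -1.15, SE 0.086, limma adjusted p = 1.90e-10). All 3 knockout libraries of both genes were below every control library. Ppp1r15a, which encodes GADD34 and directs the phosphatase that restores translation, had 1951, 2499 and 2504 against 1129, 1154 and 1203 (log2 fold change -0.99, SE 0.085, limma adjusted p = 1.57e-09). Trib3, the pseudokinase that restrains ATF4 signalling, had 1030.1, 1170.5 and 1192 against 769, 852 and 899.8, a smaller difference without overlap (log2 fold change -0.43, SE 0.078, limma adjusted p = 5.41e-05). Cebpg, a dimer partner of ATF4, fell as well (log2 fold change -0.32, limma adjusted p = 3.46e-05). The exception was Ddit3, which encodes the pro-apoptotic factor CHOP: it had 898, 1011 and 1016 in control and 1006, 1007 and 1088 in Actr3 KO, with overlapping groups (log2 fold change 0.086, SE 0.073, limma adjusted p = 0.301).

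Of the 9 amino acid and one-carbon enzymes, 8 fell. The largest difference was in Mthfd2, the mitochondrial folate enzyme, with 3064, 3109 and 3146 in control and 961, 1043 and 1169.9 in Actr3 KO (log2 fold change -1.56, SE 0.074, limma adjusted p = 1.56e-13). Psat1, the middle enzyme of serine synthesis, had 7899, 8079.8 and 8226 against 3054, 3109 and 3240.2 (log2 fold change -1.36, SE 0.058, limma adjusted p = 2.85e-14). In both genes the highest knockout library was below the lowest control library. Psph had 979.8, 1059 and 1169.6 against 453, 472 and 521 (log2 fold change -1.15, SE 0.082, limma adjusted p = 8.41e-11). Asns, asparagine synthetase, had 3104, 3236 and 3311 against 1778, 1854 and 1854 (log2 fold change -0.81, SE 0.075, limma adjusted p = 4.64e-09). Chac1, which degrades glutathione, had 836, 930.3 and 953 against 483, 509 and 557 (log2 fold change -0.81, SE 0.098, limma adjusted p = 2.36e-07). None of these 3 genes had a knockout library within the control range. The serine pathway did not move as a block: Phgdh, its entry enzyme, had 20367, 21228 and 22578 against 19102, 19238 and 20154 (log2 fold change -0.13, SE 0.068, limma adjusted p = 0.0865), while the following enzymes Psat1 and Psph fell. Shmt2 (-0.18, limma adjusted p = 0.00765), Aldh18a1 (-0.16, adjusted p = 0.0248) and Pycr1 (-0.24, adjusted p = 0.0491) changed little. With quantile normalization Shmt2 and Aldh18a1 lost their calls (adjusted p = 0.603 and 0.922). Aldh18a1 also lost its call without control replicate 1 or 3 or without Actr3 KO replicate 1 or 2 (adjusted p = 0.0503 to 0.0792), Shmt2 without the unnumbered control (adjusted p = 0.0555), and Pycr1 without any 1 of the 6 libraries (adjusted p = 0.0588 to 0.122).

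The transport genes of the arm went different ways. Slc7a5 encodes LAT1, the light chain of the large neutral amino acid transporter, and had 10113, 10350.0 and 10644 in control and 6642, 6739 and 7033 in Actr3 KO (log2 fold change -0.61, SE 0.060, limma adjusted p = 1.30e-08). Its heavy chain CD98, encoded by Slc3a2, had 9702, 10942 and 11118 against 10194, 10639 and 10820.1 (log2 fold change -0.0028, SE 0.058, limma adjusted p = 0.969). The partner chains thus had separated groups for Slc7a5 and overlapping groups for Slc3a2, whose difference from control was 0.153 with quantile normalization (adjusted p = 0.0248). Vldlr, a lipoprotein receptor, was the only gene of the arm that rose, from 10317, 10360.4 and 11141 to 12755, 13289.9 and 14167 (log2 fold change 0.34, SE 0.060, limma adjusted p = 3.80e-05). Of the tRNA synthetases, Gars had 7625, 7875 and 8125 against 3754, 3937 and 3991 (log2 fold change -1.02, SE 0.062, limma adjusted p = 7.83e-12). Sars fell slightly (-0.14, limma adjusted p = 0.0451) and was at 0.016 with quantile normalization, and its call was lost when any 1 library but control replicate 1 was left out (adjusted p = 0.0693 to 0.161), as well as with chromosome medians removed (adjusted p = 0.272). Aars (-0.083, adjusted p = 0.168) and Wars (-0.11, adjusted p = 0.138) did not pass, but both were called lower with chromosome medians removed (adjusted p = 0.0254 and 0.0135).

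**Figure D2:**
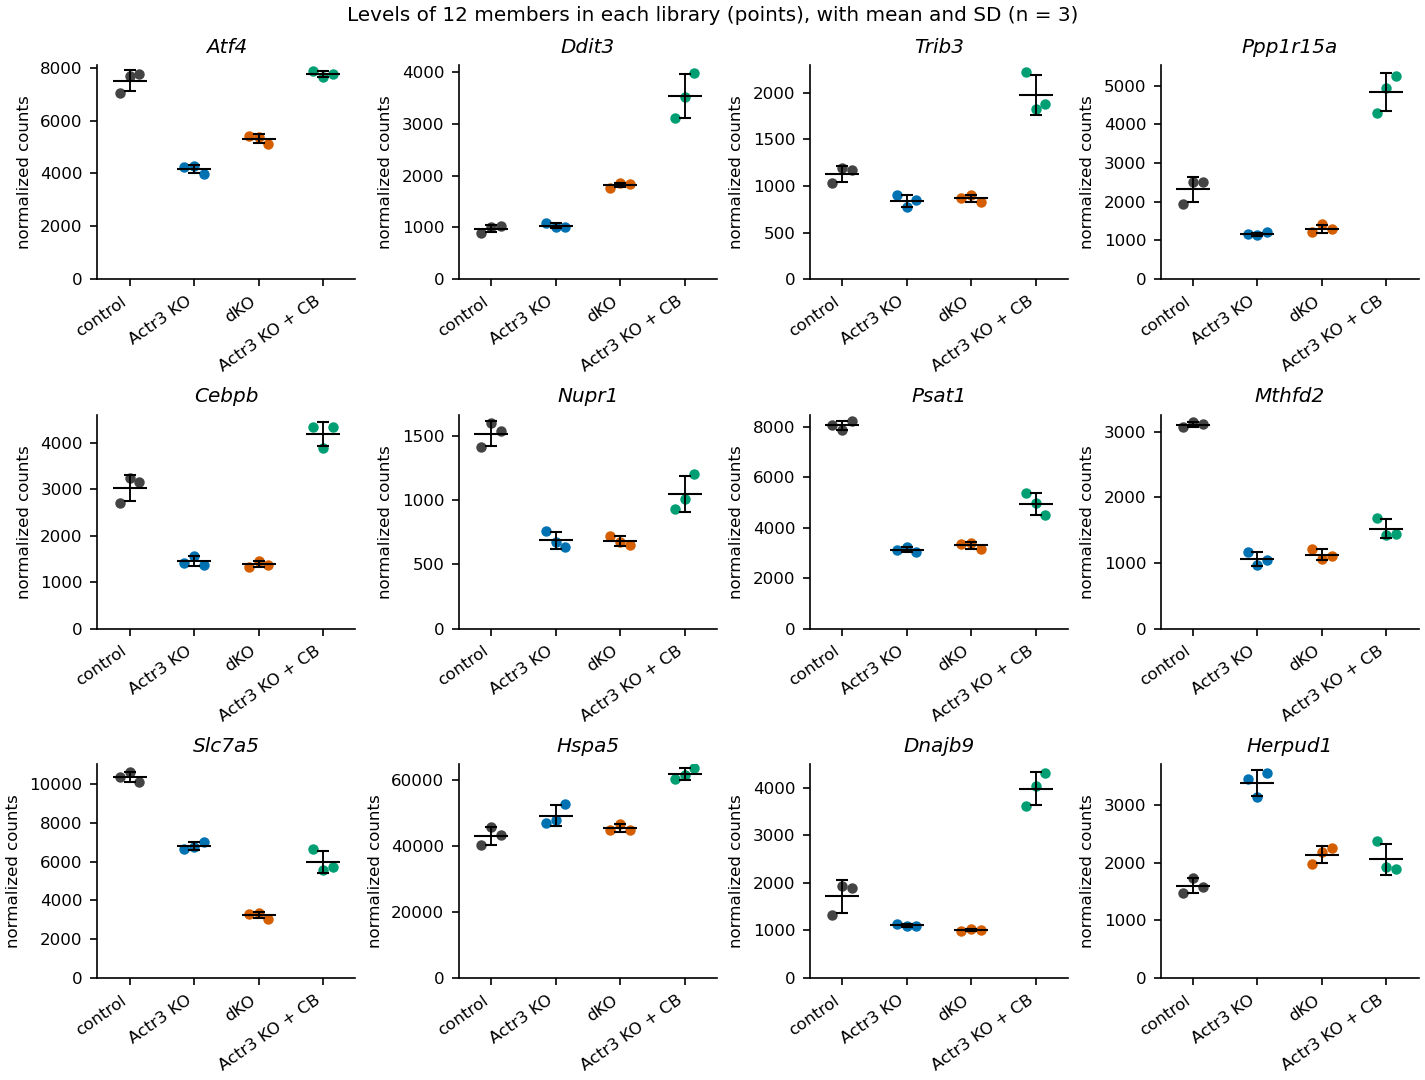
Normalized counts of 12 members in each library (points) of the 4 groups, with the mean (horizontal bar) and SD (error bar, n = 3). Atf4 is lowest in Actr3 KO and similar in control and with ciliobrevin D, Psat1 and Mthfd2 are highest in control, and Ddit3, Ppp1r15a, Trib3 and Dnajb9 are highest with ciliobrevin D.

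**Figure D3:**
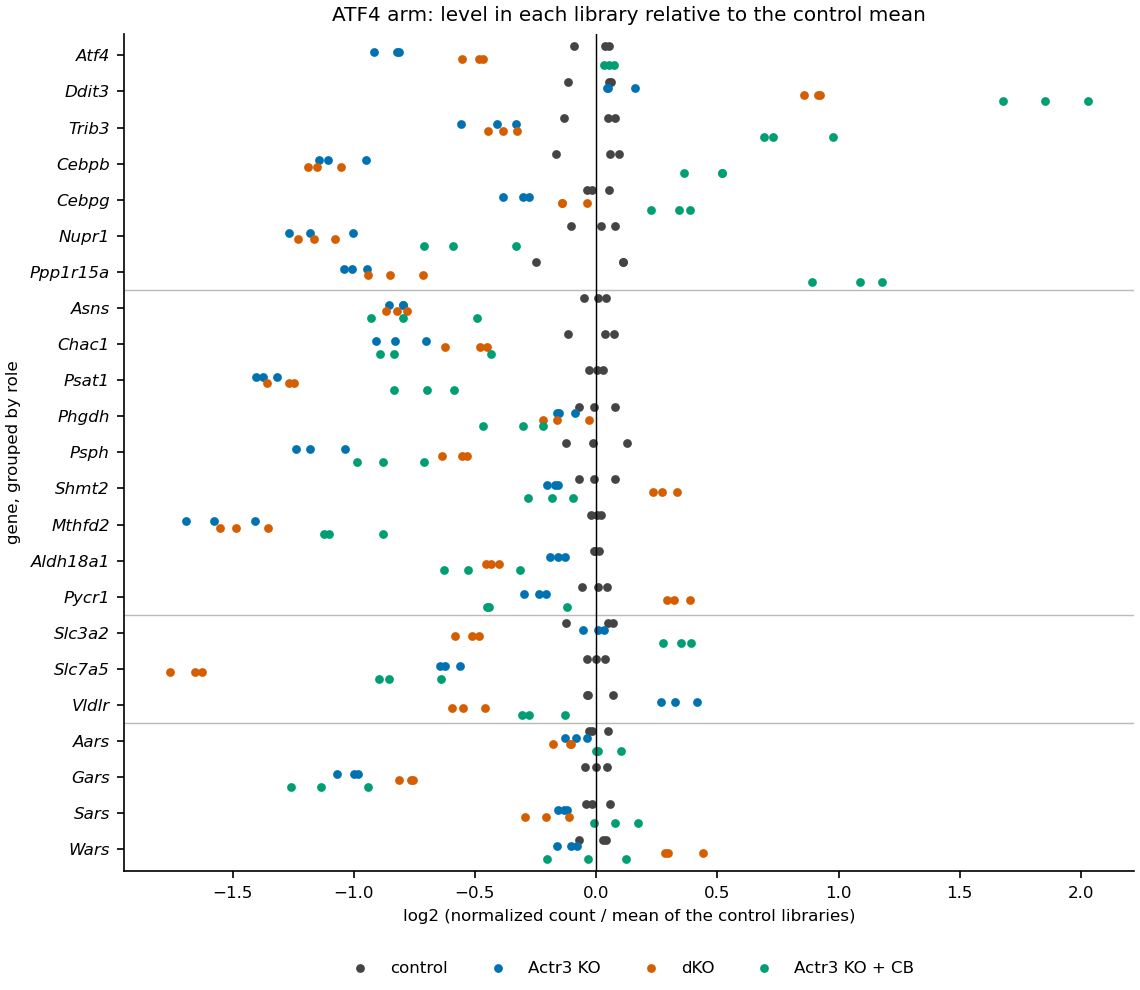
Level of the 23 genes of the ATF4 arm in each library as log2 of the normalized count over the mean of the 3 control libraries, 1 point per library, with grey lines between roles (regulators, enzymes, transport and receptor, tRNA synthetases). With ciliobrevin D, Ddit3, Trib3, Cebpb, Cebpg and Ppp1r15a lie right of the control line and Nupr1 left of it, as do the means of all 9 enzymes.

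The ER chaperone arm contained the strongest rise of all 38 genes in Actr3 KO. Herpud1, an ER membrane protein of the degradation pathway, had 1484, 1581 and 1741 in control and 3134, 3444 and 3562 in Actr3 KO (log2 fold change 1.08, SE 0.079, limma adjusted p = 1.33e-10), so that the lowest knockout library was above the highest control by over 1.5-fold. Dnajc3, the co-chaperone P58IPK, rose (0.28, limma adjusted p = 0.00011), as did Hyou1, a large ER chaperone (0.22, adjusted p = 0.00189). Hspa5 had 40214, 43484 and 45767 against 46936, 47870.4 and 52871 (log2 fold change 0.19, SE 0.073, limma adjusted p = 0.0249). Its groups were adjacent without overlap, and the call was lost without control replicate 1 (adjusted p = 0.112) or Actr3 KO replicate 3 (adjusted p = 0.107), and with chromosome medians removed (0.088, adjusted p = 0.289). Edem1, which takes misfolded glycoproteins to degradation, had 2375, 2531 and 2531 against 1598, 1609.8 and 1674 (log2 fold change -0.61, SE 0.060, limma adjusted p = 1.39e-08). Dnajb9, the co-chaperone ERdj4, had 1324, 1888 and 1935 against 1089, 1095 and 1145 (log2 fold change -0.61, SE 0.097, limma adjusted p = 1.09e-05), with 1 control library well below the other 2. The ER sensor Atf6 fell from 4221, 4612 and 4715 to 3372, 3402 and 3875 (log2 fold change -0.35, SE 0.057, limma adjusted p = 1.41e-05). Manf, a secreted ER factor, fell by a smaller amount (-0.26, adjusted p = 0.000109). The disulfide isomerase Pdia4 fell (-0.25, adjusted p = 0.000281) but was higher with chromosome medians removed (0.17, adjusted p = 0.00883) and not called with quantile normalization (adjusted p = 0.181). Pdia6 (-0.14, adjusted p = 0.0273) was at 0.039 with quantile normalization and lost its call without control replicate 3 or Actr3 KO replicate 1 or 2 (adjusted p = 0.0788 to 0.125). Xbp1, Hsp90b1, Sdf2l1, Calr and Creld2 did not pass, with log2 fold changes from -0.11 for Hsp90b1 to 0.066 for Calr, although these ends of the range were called lower and higher with quantile normalization (adjusted p = 0.0295 and 0.0205).

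**Figure D4:**
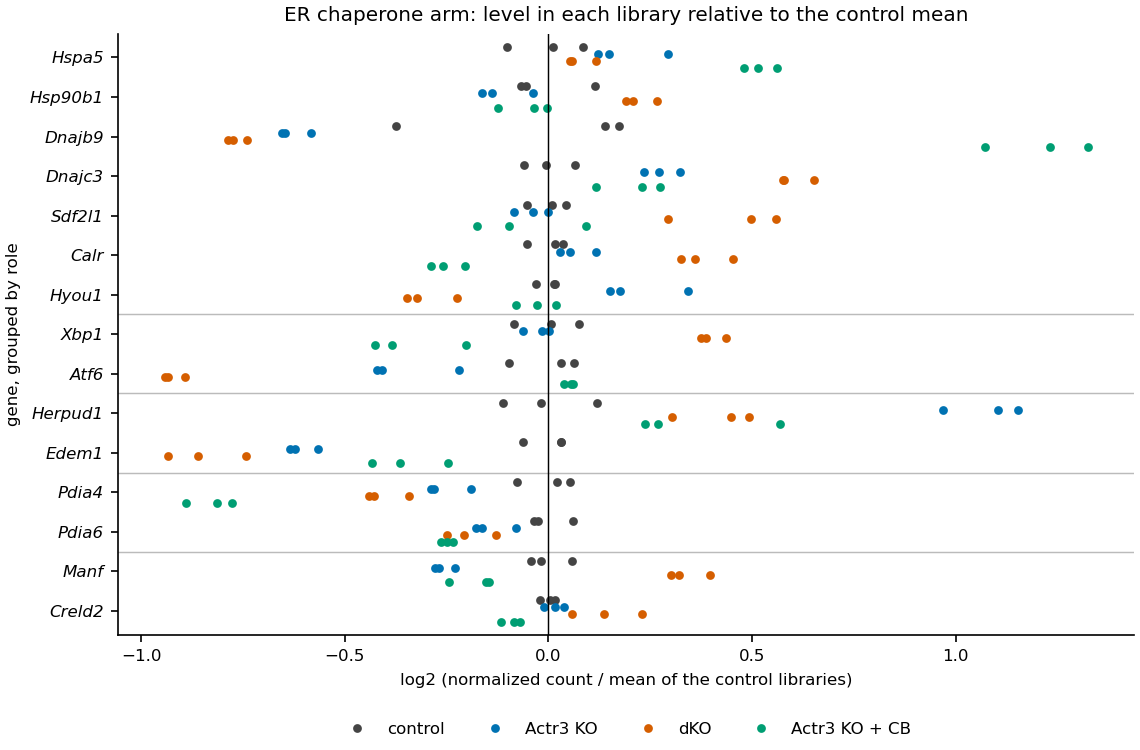
Level of the 15 genes of the ER chaperone arm in each library as log2 of the normalized count over the control mean, 1 point per library, grouped by role. Herpud1 is furthest right in Actr3 KO, Dnajb9 furthest right with ciliobrevin D, and Edem1 and Atf6 furthest left in dKO.

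Medians over whole chromosomes were shifted, and the genes are therefore also given relative to them. In Actr3 KO against control the median log2 fold change of all tested genes on chromosome 6 was -0.42, and Asns, Gars, Mthfd2, Edem1 and Pdia4 all lie there. With the chromosome medians removed, Mthfd2 stood at -1.14, adjusted p = 2.06e-11, Gars at -0.60, adjusted p = 2.92e-08, Asns at -0.40, adjusted p = 8.75e-05 and Edem1 at -0.19, adjusted p = 0.00877. These 4 genes were lower under both scalings, by less after the removal. On chromosome 5, with a median of -0.24, Psph stood at -0.90, adjusted p = 3.44e-09. The removal only subtracts the median, so genes on chromosomes with medians near 0 kept their size by construction, which is no check of them. Atf4 on chromosome 15 stood at -0.86, adjusted p = 6.57e-12 and Psat1 on chromosome 19 at -1.36, adjusted p = 3.52e-14. Over the ATF4 arm, 18 genes were lower and 1 higher after the removal, and 10 were at least 1.5-fold lower. The shares of all tested genes given above (35.4% lower, 34.4% higher and 15.3% at least 1.5-fold lower) belong to the fit without the removal. Shares after the removal are not given here, so these counts stand without a background. The source of the chromosome shifts was not tested.

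**Figure D5:**
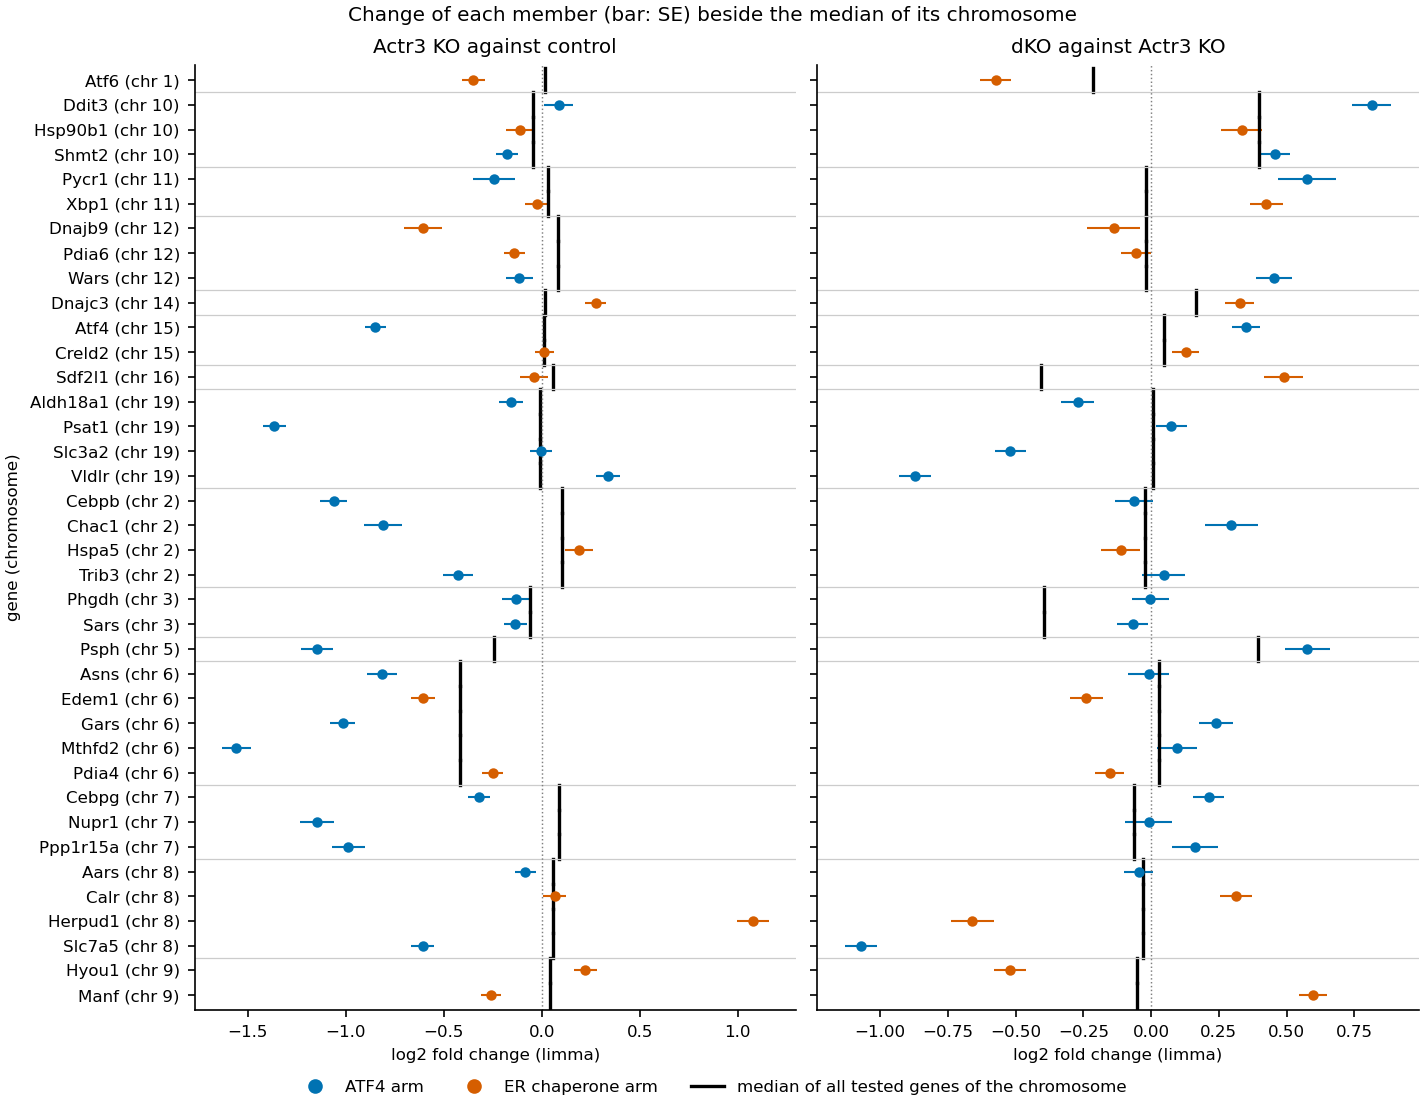
Log2 fold change (points, with SE) of the 38 genes ordered by chromosome in Actr3 KO against control (left) and dKO against Actr3 KO (right), with the median of all tested genes of each chromosome as a black line. On the left, the line for chromosome 6 is at -0.42 and Mthfd2, Gars and Asns lie further left than it. On the right, the lines for chromosomes 5 and 10 are near 0.40 and those for chromosomes 3 and 16 near -0.40.

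The second comparison, dKO against Actr3 KO, asks what the line with the added Ift88 edit differs in. Of the 23 genes of the ATF4 arm, 9 rose and 4 fell, where 32.5% of tested genes were called higher and 33.2% lower, and its median of 0.075 was close to that of all genes (-0.012). At least 1.5-fold higher was 1 gene (10.6% of tested genes) and at least 1.5-fold lower were 2 (14.9%). The first count was 2 without Actr3 KO replicate 2 or 3 and 3 without dKO replicate 3. Counts near the background are not a result about the arm as a whole, and Slc7a5, Vldlr and Ddit3 had the largest changes. By role, 3 regulators rose and none fell, 4 enzymes rose and 1 fell, 2 tRNA synthetases rose and none fell, and all 3 transport and receptor genes fell.

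Atf4 had 5111, 5375 and 5429 in dKO, above every Actr3 KO library (log2 fold change 0.35, SE 0.052, limma adjusted p = 4.57e-06) and below every control library (dKO against control -0.50, adjusted p = 2.85e-08). Ddit3 had 1767, 1836 and 1851 (log2 fold change 0.81, SE 0.073, limma adjusted p = 2.98e-09), the largest rise of the arm. Ddit3 lies on chromosome 10, whose median in this comparison was 0.40, and it stood at 0.41, adjusted p = 3.99e-05 with the medians removed. Cebpg rose as well (0.21, adjusted p = 0.00226), and the other 4 regulators did not pass. Cebpb had 1328, 1361 and 1459 (log2 fold change -0.064, SE 0.070, limma adjusted p = 0.431). Nupr1 had 648, 678 and 719 (log2 fold change -0.0088, SE 0.086, limma adjusted p = 0.935). Trib3 had 830.1, 867 and 903 (log2 fold change 0.047, SE 0.078, limma adjusted p = 0.618). The dKO libraries of these 3 genes overlapped the Actr3 KO libraries. Ppp1r15a was above Actr3 KO in each library (1208, 1285 and 1411) without passing the test (log2 fold change 0.16, SE 0.085, limma adjusted p = 0.102). It passed in a fit of only the 2 groups (adjusted p = 0.0275) and with chromosome medians removed (0.22, adjusted p = 0.0263).

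Psat1, Mthfd2 and Asns, which were far below control in Actr3 KO, did not pass between dKO and Actr3 KO. Psat1 had 3152, 3354 and 3401 (log2 fold change 0.075, SE 0.058, limma adjusted p = 0.263). Mthfd2 had 1061, 1109 and 1215 (log2 fold change 0.095, SE 0.074, limma adjusted p = 0.266). Asns had 1763, 1819 and 1873 (log2 fold change -0.0081, SE 0.075, limma adjusted p = 0.931). The groups overlapped for all 3 genes, and every dKO library of each was below every control library. Psph rose to 688, 728 and 739 (log2 fold change 0.58, SE 0.082, limma adjusted p = 2.58e-06) on chromosome 5, whose median was 0.39, and it stood at 0.18, adjusted p = 0.057 with the medians removed. Shmt2, mitochondrial serine hydroxymethyltransferase, rose (0.46, adjusted p = 2.77e-07) on chromosome 10 and stood at 0.058, adjusted p = 0.375. Pycr1 on chromosome 11 rose from 152, 159 and 162 to 229, 233 and 244 (log2 fold change 0.58, SE 0.11, limma adjusted p = 8.04e-05), above every control library too. Phgdh and Sars, on chromosome 3 with a median of -0.39, had log2 fold changes of -0.0027 and -0.068 and stood at 0.39, adjusted p = 3.53e-05 and 0.33, adjusted p = 5.50e-05 with the medians removed. Chac1 rose (0.30, adjusted p = 0.0113), and lost its call without Actr3 KO replicate 3 (adjusted p = 0.0549).

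All 3 transport and receptor genes fell in dKO. Slc7a5 had 3068, 3290.3 and 3364 normalized counts, below 6642, 6739 and 7033 in Actr3 KO (log2 fold change -1.07, SE 0.060, limma adjusted p = 2.36e-12). Slc3a2 had 7076, 7427 and 7569 (log2 fold change -0.52, SE 0.058, limma adjusted p = 7.69e-08). Both chains of the transporter were therefore lower in every dKO library than in any Actr3 KO or control library. Vldlr had 7015, 7242 and 7722 (log2 fold change -0.87, SE 0.060, limma adjusted p = 5.34e-11), below every control library after having been above them in Actr3 KO. Against control, Slc7a5 in dKO had the largest change of any of the 38 genes in that direction (log2 fold change -1.68, SE 0.060, adjusted p = 9.46e-16). Of the tRNA synthetases, Wars rose from 2418, 2519.5 and 2559.9 to 3290.2, 3318 and 3676 (log2 fold change 0.45, SE 0.068, limma adjusted p = 4.79e-06), and Gars rose (0.24, adjusted p = 0.00194).

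In the ER chaperone arm, 7 of 15 genes rose and 5 fell in dKO, where 32.5% of tested genes were called higher and 33.2% lower. At least 1.5-fold changed was 1 gene in each direction, against 10.6% of tested genes higher and 14.9% lower. Counts near these shares are no result about the arm. The higher count was 0 without dKO replicate 2, and the lower count was 2 without Actr3 KO replicate 1 or 2 or dKO replicate 1. Manf had 2643, 2664 and 2738 in Actr3 KO and 3951, 4008 and 4221 in dKO (log2 fold change 0.60, SE 0.050, limma adjusted p = 1.20e-09). Xbp1, the transcription factor activated by IRE1, had 1531, 1580.2 and 1599.9 against 2073, 2089 and 2162 (log2 fold change 0.42, SE 0.061, limma adjusted p = 3.15e-06). Every dKO library of both genes was above every library of Actr3 KO and control. Sdf2l1, a partner of ER chaperones, rose (0.49, adjusted p = 3.96e-06) although its chromosome 16 had a median of -0.41, and stood at 0.90, adjusted p = 7.98e-10 with the medians removed. Calr (0.31, adjusted p = 9.11e-05) and Dnajc3 (0.33, adjusted p = 1.74e-05) rose as well. Hsp90b1 rose (0.33, adjusted p = 0.000479), but on chromosome 10 it stood at -0.066, adjusted p = 0.453 with the medians removed. In the other direction, Herpud1 fell from 3134, 3444 and 3562 to 1978, 2185 and 2254 (log2 fold change -0.66, SE 0.079, limma adjusted p = 2.49e-07), a level still above every control library. Atf6 fell to 2349, 2364 and 2432 (log2 fold change -0.57, SE 0.057, limma adjusted p = 1.55e-08), on chromosome 1 with a median of -0.21. Hyou1 fell as well (-0.52, adjusted p = 8.47e-08), as did Edem1 (-0.24, adjusted p = 0.00157). Creld2 (0.13, adjusted p = 0.0311) and Pdia4 (-0.15, adjusted p = 0.0162) lost their calls when single libraries were left out, and Creld2 also with chromosome medians removed (adjusted p = 0.179). For Creld2 these were Actr3 KO replicates 1 and 3 and dKO replicates 2 and 3 (adjusted p = 0.0624 to 0.184), and for Pdia4 Actr3 KO replicate 3 and dKO replicates 1 and 3 (adjusted p = 0.0598 to 0.0768). Hspa5 had 44768, 44925 and 46774 and did not pass (log2 fold change -0.11, SE 0.073, limma adjusted p = 0.181), and was called higher with quantile normalization (0.22, adjusted p = 0.00225).

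Against control, dKO had 17 of 23 genes of the ATF4 arm lower and 4 higher, where 35.1% of tested genes were called lower and 32% higher, with a median of -0.51 beside -0.0091 for all genes. Of the lower genes, Aars (limma adjusted p = 0.0369) lost its call with TMM, with edgeR and without the unnumbered control. Sars, also lower, was called higher with chromosome medians removed (0.24, limma adjusted p = 0.00122). Shmt2, 1 of the higher genes, was then not called (limma adjusted p = 0.0755). The ER chaperone arm had 8 higher and 6 lower (median 0.14). It had 9 higher and 4 lower with quantile normalization, and 6 higher and 6 lower with chromosome medians removed. This comparison shares its control libraries with the first and its dKO libraries with the second, so its counts are not separate evidence.

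The third comparison, ciliobrevin D-treated Actr3 KO against untreated Actr3 KO, is the only one within a single line. All 7 regulators of the ATF4 arm rose, each by at least 1.5-fold, with a median log2 fold change of 1.23. In some alternative settings Nupr1 and Cebpg stayed under 1.5-fold, with lowest log2 fold changes of 0.50 and 0.56. Over the whole arm 12 genes rose and 4 fell, where 32.7% of tested genes were called higher and 32.9% lower, and 11 rose and 6 fell with quantile normalization. At least 1.5-fold higher were 8 of the 23, against 13.1% of tested genes, and none was 1.5-fold lower, against 11.3% (1 without Actr3 KO replicate 2 or treated replicate 1). The median was 0.22, beside -0.015 for all tested genes.

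Ppp1r15a had the largest change, with 1129, 1154 and 1203 in Actr3 KO and 4297, 4934 and 5252 with ciliobrevin D (log2 fold change 2.05, SE 0.085, limma adjusted p = 2.23e-14). Ddit3 had 1006, 1007 and 1088 against 3119, 3515 and 3976 (log2 fold change 1.77, SE 0.073, limma adjusted p = 1.90e-14). Cebpb had 1370.0, 1405 and 1566 against 3891, 4330.4 and 4338 (log2 fold change 1.53, SE 0.070, limma adjusted p = 8.63e-14). In all 3 genes every treated library was above every untreated and every control library. Trib3 had 1826, 1877 and 2224 with the drug (log2 fold change 1.23, SE 0.078, limma adjusted p = 1.71e-11). Atf4 itself had 7664, 7773 and 7893 (log2 fold change 0.90, SE 0.052, limma adjusted p = 3.45e-12). Cebpg had 2355, 2554 and 2633 (log2 fold change 0.64, SE 0.056, limma adjusted p = 2.78e-09). Treated and untreated libraries did not overlap for any of these, and the treated Atf4 libraries lay within or just above the range of control. Nupr1 rose to 929, 1009 and 1207 (log2 fold change 0.60, SE 0.086, limma adjusted p = 2.96e-06), a level below every control library.

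The enzymes did not follow as a group: 3 of 9 rose, 2 fell and 4 did not pass. Psat1 rose to 4520.3, 4976 and 5380.2 (log2 fold change 0.66, SE 0.058, limma adjusted p = 2.49e-09). Mthfd2 rose to 1426, 1447 and 1687 (log2 fold change 0.52, SE 0.074, limma adjusted p = 2.56e-06). Psph rose less (0.29, adjusted p = 0.00351), and stood at 0.076, adjusted p = 0.429 with chromosome medians removed. All treated libraries of Psat1 and Mthfd2 stayed below every control library. Asns had 1688, 1854 and 2289 with the drug against 1778, 1854 and 1854 without (log2 fold change 0.077, SE 0.075, limma adjusted p = 0.384), with overlapping groups, and was called higher without treated replicate 3 (0.17, adjusted p = 0.0345). Chac1 had 489, 509 and 671 against 483, 509 and 557 (log2 fold change 0.095, SE 0.098, limma adjusted p = 0.404). In both genes the highest treated library was replicate 1. Aldh18a1 fell (-0.33, adjusted p = 6.40e-05), and Phgdh fell (-0.19, adjusted p = 0.0158) with the call lost without Actr3 KO replicate 2 (adjusted p = 0.0634) or treated replicate 3 (adjusted p = 0.112).

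The chains of the amino acid transporter had opposite signs with the drug. Slc3a2 had 12815, 13485 and 13872 against 10194, 10639 and 10820.1 (log2 fold change 0.34, SE 0.058, limma adjusted p = 2.29e-05). Slc7a5 had 5576, 5732 and 6646 against 6642, 6739 and 7033 (log2 fold change -0.19, SE 0.060, limma adjusted p = 0.00914), with groups that overlapped, and its call was lost without treated replicate 2 (adjusted p = 0.0709) and with chromosome medians removed (-0.14, adjusted p = 0.0544). Vldlr fell from 12755, 13289.9 and 14167 to 8586, 8743 and 9692 (log2 fold change -0.57, SE 0.060, limma adjusted p = 3.39e-08). Among the tRNA synthetases, Sars rose (0.22, adjusted p = 0.00272), a call lost with quantile normalization (0.074, adjusted p = 0.31). Gars had 3289.7, 3587 and 4099 (log2 fold change -0.095, SE 0.062, limma adjusted p = 0.185), and was called lower without treated replicate 1 (-0.18, adjusted p = 0.00836) and with quantile normalization (-0.26, adjusted p = 0.00109). Aars and Wars did not pass, and were called higher without treated replicate 3 (adjusted p = 0.044 and 0.0306). Aars was also called higher without Actr3 KO replicate 3, with a filter on a mean of 50, with TMM, with DESeq2 and with chromosome medians removed (adjusted p = 0.00703 to 0.0481).

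In the ER chaperone arm, 4 of 15 genes rose and 5 fell with ciliobrevin D, where 32.7% of tested genes were called higher and 32.9% lower. Counts near these shares are no result about the arm. With quantile normalization 4 rose and 8 fell. Dnajb9 stood apart, with 1089, 1095 and 1145 in untreated and 3610.1, 4027 and 4296 in treated Actr3 KO (log2 fold change 1.84, SE 0.097, limma adjusted p = 9.34e-13), every treated library being above every control library. Hspa5 had 60210.5, 61678 and 63652 (log2 fold change 0.33, SE 0.073, limma adjusted p = 0.000438), its highest level of the 4 groups. Atf6 rose to 4635, 4694 and 4712 (log2 fold change 0.40, SE 0.057, limma adjusted p = 2.69e-06), close to its level in control, and Edem1 rose less (0.26, adjusted p = 0.00078). Other genes of the arm went down: Herpud1 fell to 1889, 1929 and 2374 (log2 fold change -0.72, SE 0.079, limma adjusted p = 8.29e-08). Pdia4 fell from 7788, 7828 and 8338 to 5128, 5406 and 5549 (log2 fold change -0.57, SE 0.053, limma adjusted p = 6.14e-09). Xbp1 fell from 1531, 1580.2 and 1599.9 to 1189.5, 1226 and 1389 (log2 fold change -0.31, SE 0.061, limma adjusted p = 0.00014). None of these 3 genes had overlapping groups. Calr (-0.32, adjusted p = 8.75e-05) and Hyou1 (-0.25, adjusted p = 0.000694) fell as well, and Hsp90b1, Dnajc3, Sdf2l1, Pdia6, Manf and Creld2 did not pass. With quantile normalization Creld2, Dnajc3 and Pdia6 were called lower (adjusted p = 0.000439, 0.00282 and 0.000128). With chromosome medians removed, Manf was called higher (0.15, adjusted p = 0.0135) and Pdia6 lower (adjusted p = 0.036), which gave 5 higher and 6 lower.

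The treated libraries were also set against control. Of the 7 regulators 5 were higher than control and 1 (Nupr1) lower, and all 9 enzymes were lower, where 33% of tested genes were called higher and 32% lower. The Shmt2 call was lost without treated replicate 2 (adjusted p = 0.0532). Over the arm this gave 6 higher and 13 lower, with a median of -0.24. Ddit3 (1.85, SE 0.073, limma adjusted p = 1.63e-14) and Ppp1r15a (1.06, SE 0.085, adjusted p = 7.78e-10) were furthest above control. Mthfd2 (-1.03, SE 0.074, adjusted p = 1.35e-10), Psph (-0.85, SE 0.082, adjusted p = 1.18e-08) and Gars (-1.11, SE 0.062, adjusted p = 3.11e-12) were furthest below. Mthfd2 and Gars lie on chromosome 6, whose median in this comparison was -0.41. With chromosome medians removed they stood at -0.62 and -0.70, behind Psph (-0.83), Slc7a5 (-0.80) and Chac1 (-0.77). Atf4 itself differed from control by 0.053 (SE 0.052, adjusted p = 0.381), which does not show that the levels are equal. The ER chaperone arm had 4 higher and 6 lower (median -0.060), with Dnajb9 (1.23) and Pdia4 (-0.83) at its ends.

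The treated Actr3 KO was compared directly with dKO, which tests whether these groups differ in the level of the genes. Since dKO is 1 separate line, the added edit and the line cannot be told apart here. All 7 regulators were higher with the drug, from 0.43 for Cebpg to 1.89 for Ppp1r15a (limma adjusted p = 7.37e-07 and 3.02e-14). All 3 transport and receptor genes were higher as well (Vldlr not with quantile normalization, adjusted p = 0.349), with Slc7a5 at 0.88 (adjusted p = 2.95e-11) and Slc3a2 at 0.86 (adjusted p = 2.06e-11). Over the arm 14 genes were higher and 6 lower, where 37% of tested genes were called higher and 36.3% lower, with a median of 0.30 beside -0.0049 for all genes. The enzymes were divided, 2 higher (Psat1 0.58, Mthfd2 0.43) and 4 lower (Pycr1 -0.66, Shmt2 -0.47, Psph -0.28, Phgdh -0.19). With chromosome medians removed, Shmt2 and Psph were no longer called (adjusted p = 0.233 and 0.474). Phgdh lost its call without treated replicate 3 (adjusted p = 0.111) or dKO replicate 2 (adjusted p = 0.0981). In the ER chaperone arm 5 genes were higher and 8 lower, or 3 and 9 with quantile normalization. Dnajb9 (1.98, adjusted p = 1.37e-13) and Atf6 (0.97, adjusted p = 2.31e-12) were higher with the drug, and Xbp1 (-0.74, adjusted p = 6.81e-10) and Calr (-0.63, adjusted p = 5.09e-09) were higher in dKO. Herpud1 had a difference of -0.057 (SE 0.079, adjusted p = 0.528).

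The motif matches were set beside the calls as a description, against 34.4% of tested genes called higher and 35.4% lower in Actr3 KO against control, 32.5% and 33.2% in dKO against Actr3 KO, and 32.7% and 32.9% with ciliobrevin D. Of the 7 genes of the ATF4 arm with a CARE match, 5 fell and 1 rose in Actr3 KO against control. With ciliobrevin D 1 rose (Nupr1) and 1 fell (Vldlr), with a median of 0.077. Of the 14 searched genes of this arm without a CARE match, 11 fell and none rose in Actr3 KO. With ciliobrevin D 11 of them rose and 2 fell, with a median of 0.58. Herpud1 of the ER chaperone arm, which also has a CARE match, rose in Actr3 KO and fell with ciliobrevin D. Of the 6 genes of the ER chaperone arm with an ERSE match, 2 rose and 1 fell in Actr3 KO against control. In dKO against Actr3 KO 4 rose and none fell. With chromosome medians removed, Hsp90b1 (-0.066, limma adjusted p = 0.453) and Creld2 (limma adjusted p = 0.179) were not called there. With ciliobrevin D 1 rose (Hspa5) and 1 fell (Calr). Of the 6 searched genes of this arm without an ERSE match, 1 rose and 3 fell in Actr3 KO against control. The gene that rose was Herpud1, which holds the ERSE-II match and is counted here as without ERSE. In dKO against Actr3 KO 2 rose and 3 fell, as with ciliobrevin D. Dnajb9, the gene of this arm with the largest rise under the drug, had none of the motifs in its window. The difference between genes with and without a match was not tested.

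The wider pathway was read through 4 further lists of genes, whose counts stand against the same shares of all tested genes, from 32.5% to 35.4% in each direction and comparison. Many of the counts are near those shares and are then no result about the list. Among 22 other ATF4 targets, 15 fell and 3 rose in Actr3 KO against control, 11 fell and 6 rose in dKO against Actr3 KO, and 12 rose and 5 fell with ciliobrevin D. Slc7a11, the cystine transporter, went from 716 ± 81.6 in control to 73 ± 11.1 in Actr3 KO and 729 ± 24.8 with the drug. Atf3, a stress-induced transcription factor, went from 1359.9 ± 252 in Actr3 KO to 28252 ± 2989 with the drug (log2 fold change 4.39, limma adjusted p = 5.02e-16). Ddit4, an inhibitor of mTORC1 signalling, fell in Actr3 KO (-2.16) and rose with the drug (2.61). Of 17 stress sensors and eIF2 alpha factors, 4 rose and 8 fell in Actr3 KO, 6 rose and 7 fell in dKO against Actr3 KO, and 6 rose and 5 fell with the drug. Eif2s1, which encodes eIF2 alpha, fell in Actr3 KO (-0.69) and rose both in dKO (0.56) and with the drug (0.64). Ern1, the sensor IRE1, rose with the drug (0.89, adjusted p = 8.71e-10), and Eif2ak3, the sensor PERK, fell in dKO (-0.87, adjusted p = 1.06e-09). The 16 other cytosolic tRNA synthetases had 2 higher and 7 lower in Actr3 KO, 7 and 5 in dKO, and 5 and 4 with the drug. The 30 other ER folding and quality control genes had 10 higher and 11 lower in Actr3 KO, and 7 higher and 15 lower both in dKO and with the drug. Ero1l, the oxidase that recharges disulfide isomerases, was the furthest of these with the drug (2.22, adjusted p = 1.48e-14).

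Counts of some genes may hold reads of a neighbour, since no source used here gives the strand setting of the counting. Exons of another annotated gene cover 20.7% of the exon bases of Cebpb (Tmem189), 10.4% of those of Psph (Cct6a) and 10.3% of those of Hsp90b1 (1810014B01Rik). The 8 further genes with an overlap share it with a neighbour over 5.3% of their exon bases or less, with Ddit3 at 4% (Mars).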

How the data were processed

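Polyadenylated RNA of 12 mIMCD3 samples (4 groups of 3) was sequenced. The submitters' processing notes name fastp 0.23.2, HISAT2 2.2.1, featureCounts 2.0.1, DESeq2 2.11.40.7 and the builds mm10 and GRCm38. The deposited table holds a signal per Entrez gene that the authors made by dividing read counts by a size factor for each library, as read from the values: 100% came out as whole reads within a tolerance of 0.01 in every library. Of 27179 gene IDs, 25275 were named. Genes with at least 10 normalized counts in at least 3 libraries (13939) were fitted with limma 3.58.1 (R 4.3.3, trended variance, log2 of value + 1, all 12 libraries, two-sided), with Benjamini-Hochberg adjustment over all tested genes and calls under 0.05. Fold changes are on that log2(value + 1) scale. There were 6 comparisons. For Actr3 KO against control, edgeR on those reads called 9856 genes and limma 9724. Alternatives were edgeR 4.0.16 and DESeq2 1.42.0 on the recovered reads, other scalings, pseudocounts and filters, and each library left out. The member genes and lists were chosen with earlier results of these data known. All members could be named, and of each other list up to 3 genes per direction with the smallest adjusted p. The fit was tested on simulated data. The sequence of 1 motif match is not reported here.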

Additional observations from a re-analysis of the deposited data

How the results depend on the processing

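Over 3876 recomputed values of single genes, 3690 kept their sign and their side of the threshold, 39 gained a call, 76 lost one and 71 changed sign. Of the sign changes, 51 were uncalled in both settings (values up to 0.12 in size) and 20 were called in at least 1. These 20 are given here. The cause of these changes was not tested. With quantile normalization, those in Actr3 KO against control were Slc3a2 (0.15), Sars (0.016) and Pdia6 (0.039). In dKO against Actr3 KO it was Hspa5 (0.22), in dKO against control Aars (0.12), Sars (0.023) and Pdia6 (0.10), and in treated Actr3 KO against dKO Aars (-0.075) and Hspa5 (-0.029). With chromosome medians removed, they were Pdia4 (0.17) in Actr3 KO against control, and Phgdh (0.39), Sars (0.33) and Hsp90b1 (-0.066) in dKO against Actr3 KO. In dKO against control they were Phgdh (0.31), Shmt2 (-0.12), Sars (0.24) and Hsp90b1 (-0.17), in treated Actr3 KO against control Edem1 (0.066), and in treated Actr3 KO against dKO Sars (-0.11) and Hsp90b1 (0.12). Among counts of genes at least 1.5-fold changed, the ER chaperone arm in Actr3 KO against control had 2 lower, 0 with quantile normalization, 1 with chromosome medians removed, and 1 to 2 with 1 library left out. In dKO against Actr3 KO, the ATF4 arm had 1 higher, 3 with TMM, 2 with quantile normalization, 3 with edgeR and 1 to 3 with 1 library left out. The ER chaperone arm there had 1 higher (2 with quantile normalization, 2 with chromosome medians removed, 0 to 1 with 1 library left out) and 1 lower (2 with quantile normalization, 1 to 2 with 1 library left out). In treated against untreated Actr3 KO, the ATF4 arm had 0 lower (1 with quantile normalization, 0 to 1 with 1 library left out) and the ER chaperone arm 1 lower (2 with quantile normalization, 1 to 2 with 1 library left out). Same-numbered libraries did not deviate together (15 pairs, correlations -0.0415 to 0.0668). The fit with the replicate number as a block also leaves out the unnumbered control. In it, Actr3 KO against control had 14 called genes of the ATF4 arm in place of 18. It had 1 in place of 2 genes of the ER chaperone arm at least 1.5-fold lower. Shmt2, Pycr1 and Sars, which lost their calls there, also lost them when only that control was left out. With 3 libraries a group, small differences may go uncalled.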
